A study of Danio rerio with 8 samples.

Results

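Transcription start sites of jam3b-sa37 zebrafish embryos at 16 hours post-fertilization (hpf) were compared with those of jam3b-sa37 embryos at 12 hpf. The comparison used 4 of the 8 libraries of the study, 2 at each stage, and 19003 of 42130 start site regions. The other 4 libraries came from wild type (WT) embryos at 16 hpf and at 12 hpf, 2 at each stage, and were used to set the WT change beside that of the mutant. All libraries were made from whole embryos of Danio rerio and hold no treatment. The labels give neither the nature of the sa37 lesion, nor whether embryos were homozygous, nor how many embryos were pooled. They also do not say that replicates came from separate clutches, so p-values measure the spread between these libraries, which may be technical.

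Cap analysis gene expression (CAGE) captures RNAs by their cap and sequences their 5′ ends, so that tags pile up where transcription begins. A gene may have several such start sites, each used at its own level, and a site may be narrow or spread over many bases. The stages compared lie in the segmentation period, when somites form in sequence along the trunk and muscle precursors begin to differentiate. The gene jam3b codes for a junctional adhesion molecule of the immunoglobulin superfamily, which in zebrafish is known for its part in the fusion of fast muscle precursors. The question addressed is which start sites gained or lost tags between 12 and 16 hpf in the mutant.

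The deposited values are tags per 1000000 tags (RPM) in tag clusters, given by position and strand in the danRer10 genome build named in the submitters' processing notes. No gene names stand beside the clusters and no annotation of that build was used here, so sites are named by position, the start site of jam3b was not looked up and the cell types of the whole embryo were not checked against markers. Replicate 1 of every group lies on a list of 30353 distinct clusters and replicate 2 on another list of 42082. The replicate number, the cluster list and its normalization cannot be told apart, and every stage difference was therefore taken within a list. Clusters of both lists that overlapped on a strand were merged into a region and their values added. Of the 23602 regions that both lists covered, 19003 averaged 1 RPM or more across the 4 jam3b-sa37 libraries and were kept, and 4599 were below that level. The kept region nearest to the limit, at chr2:58661389-58661405 (+), held 0.81 and 0.789 RPM at 16 hpf and 1.37 and 1.03 RPM at 12 hpf. The nearest region left out, at chr4:76624419-76624443 (+), held 0 and 1.83 RPM at 16 hpf and 0.51 and 1.66 RPM at 12 hpf.

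Depth was estimated from the steps between low values, as the tags in distinct clusters. The full tag totals behind RPM are not known, and the RPM of list 1 add up to 936556 to 945905 with repeated rows. By this estimate the jam3b-sa37 libraries held 15830713 and 23300915 tags at 16 hpf, in replicates 1 and 2, and 10662458 and 16938015 tags at 12 hpf. WT estimates were 14804217 and 22956035 tags at 16 hpf and 11713380 and 22593011 at 12 hpf. Replicate 1 at 12 hpf had the lowest estimate of the jam3b-sa37 libraries. List 1 gives no value between 0 and 0.51 to 0.55 RPM, depending on the library, so a 0 in replicate 1 means a value under that level. List 2 reaches down to 0.042 to 0.057 RPM, the worth of 1 tag.

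Between 12 and 16 hpf, 2820 of the 19003 regions, or 14.8%, passed the test in jam3b-sa37 embryos (limma on log2(RPM + 1), replicate block, Benjamini-Hochberg adjusted p under 0.05). Of these, 2245 regions (11.8% of those tested) were higher at 16 hpf and 575 (3.03%) were lower. Higher regions made up 79.6% of the calls. The stage difference of all regions had a median of 0.12 on the log2(RPM + 1) scale, with 0.17 in list 1 and 0.09 in list 2, so zero is not the centre of these values. The called rises had a median of 1.08 and the called falls a median of -0.996. A difference of 3 or more was reached by 61 called rises, and a difference of -3 or less by 9 called falls. On this scale, the largest changes were therefore more often gains than losses.

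The share of rises depended on the scaling. With TMM factors, 64.1% of the calls were higher (1337 higher, 748 lower) and the median of all regions was -0.02. With quantile normalization 58.7% were higher (1500 higher, 1057 lower) and the median was -0.05. Of the 2245 rises, 1337 were called higher with TMM factors and 1499 with quantile normalization, and of the 575 falls 562 and 569 were called lower. No region was called in opposite directions by these settings. On recovered tags, DESeq2 called 1463 regions higher and 1236 lower, or 54.2% higher. edgeR's quasi-likelihood test called 884 higher and 668 lower, or 57% higher.

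The count of calls also rested on the block and on single libraries. Without the replicate block 19 regions were called. The count was 472 without replicate 1 at 16 hpf, 1052 without replicate 2 at 16 hpf, 884 without replicate 1 at 12 hpf and 1265 without replicate 2 at 12 hpf. With any WT library left out it was between 2297 and 2550. The direction of change was alike in both lists for 13832 of the regions (72.8%). It was alike for all 2820 called ones, which the test favours, as it is made on the mean of both lists. Across regions, which are not independent, the differences in the lists had a Pearson's r of 0.75 (n = 19003).

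**Figure D1:**
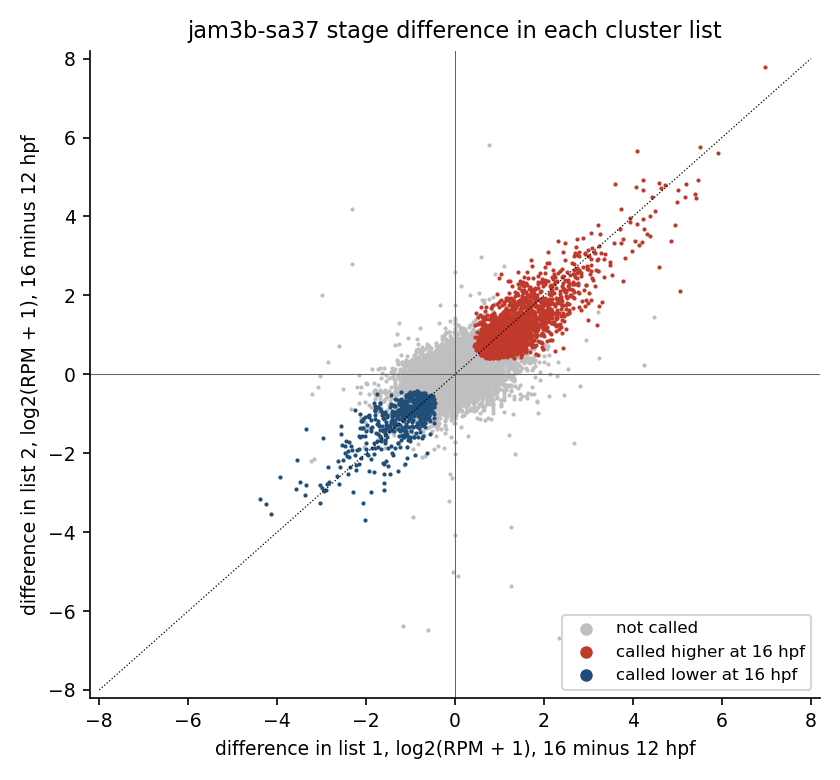
Stage difference of each region in jam3b-sa37 embryos, 16 minus 12 hpf on the log2(RPM + 1) scale, in list 1 (x axis) and list 2 (y axis), with called rises, called falls and regions not called as coloured points. Called regions lie in the quadrants where both lists have the same sign, which the test favours, and the rises reach farther from 0 than the falls.

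In the plot of list 1 against list 2, few regions with a large rise in one list were near 0 in the other, which was not so for the few large falls. A rise of at least 3 was seen in both lists for 48 regions, and in list 1 with a difference under 0.5 in list 2 for 2 regions. A fall of at least 3 was seen in both lists for 5 regions, in list 1 alone for 2 and in list 2 alone for 4. There were 4 regions with differences of at least 2 in opposite directions. The farthest apart was chr22:25438834-25438883 (-), with 20 RPM at 16 hpf and 3.16 RPM at 12 hpf in replicate 1, but 0 RPM at 16 hpf and 101.005 RPM at 12 hpf in replicate 2. Such a site has no stage direction in these data, and it was not called (adjusted p = 0.494, limma).

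The largest rises were start sites that carried many tags at 16 hpf and far fewer at 12 hpf, in most of them almost none. Over the 12 largest, the values at 16 hpf ran from 15.9 to 146.3 RPM in replicate 1 and from 27 to 239 RPM in replicate 2. At 12 hpf the same regions held 0 to 2.48 RPM and 0 to 9.05 RPM. The stages did not overlap in any of them, which follows from how they were chosen.

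Among these, chr2:2628871-2628920 (+) had the most tags at 16 hpf. It held 146.3 and 239 RPM in jam3b-sa37 embryos at 16 hpf, in replicates 1 and 2, and 2.48 and 9.05 RPM at 12 hpf. Its difference was 4.99 with a standard error of 0.31 (adjusted p = 0.000876, limma). The site was detectable at 12 hpf in both jam3b-sa37 libraries. In WT embryos it held 100.01 and 206 RPM at 16 hpf and 0 and 3.04 RPM at 12 hpf, also with no overlap of the stages.

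The broad site chr13:24148407-24148618 (+) held 105 and 136 RPM at 16 hpf, against 1.96 and 5.04 RPM at 12 hpf. Its difference was 4.83 with a standard error of 0.45 (adjusted p = 0.00211, limma). The stages again lay far apart, and the WT libraries held 81.5 and 139.6 RPM at 16 hpf and 0 and 4.46 RPM at 12 hpf. With a pseudocount of 0.1 in place of 1, neither this rise nor that at chr2:2628871-2628920 was called (adjusted p = 0.1 and 0.0686, limma).

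The site chr6:15123713-15123877 (+) held 82.9 and 93.3 RPM at 16 hpf and 0.85 and 0.744 RPM at 12 hpf, a difference of 5.63 with a standard error of 0.23 (adjusted p = 0.00034, limma). It was among the most even of the rises, with close values in both libraries of a stage. WT embryos had about the same pattern at lower levels, with 39.9 and 51.8 RPM at 16 hpf and 0 and 0.771 RPM at 12 hpf. With the single best overlapping pair of clusters in place of the merged region its difference was 3.33 and it was not called (adjusted p = 0.123, limma).

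The site chr17:27417610-27417797 (+) had the smallest adjusted p of the 12 rises, shared with a region on chromosome 13. It held 35.3 and 56.2 RPM at 16 hpf and 0 and 1.03 RPM at 12 hpf, a difference of 5.00 with a standard error of 0.16 (adjusted p = 0.000294, limma). In WT embryos it held 22.1 and 37.3 RPM at 16 hpf and 0 and 0.857 RPM at 12 hpf.

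A site of only a few bases also stood among them. The region chr4:43029118-43029121 (-) held 41.8 and 27.5 RPM at 16 hpf and 0 and 0.286 RPM at 12 hpf, a difference of 4.94 with a standard error of 0.26 (adjusted p = 0.000572, limma). Its stages did not overlap, and the WT libraries held 34.4 and 45.9 RPM at 16 hpf and 0 and 0.043 RPM at 12 hpf. It lies in a stretch of chromosome 4 where few other regions were called higher.

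Nearly all of the 12 rises were also called higher in WT embryos. The exceptions were chr11:41392192-41392209 (-) and chr1:27568677-27568700 (+). The chromosome 11 site, the largest rise, held 123 and 219 RPM in jam3b-sa37 embryos at 16 hpf and 0 and 0 RPM at 12 hpf, a difference of 7.37 with a standard error of 1.74 (adjusted p = 0.037, limma). In WT embryos it held 0 and 0 RPM at 16 hpf and 0 and 180 RPM at 12 hpf. The site was thus present in 3 of the 8 libraries, including a single WT library of the earlier stage, and it does not follow the stage across genotypes. Its WT difference was -3.75 (adjusted p = 0.213, limma). The rise was not called in edgeR (adjusted p = 0.105), without the block (0.372), with a pseudocount of 0.1 (0.115) or without any of the 4 jam3b-sa37 libraries in turn (0.105 to 0.24).

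The chromosome 1 site held 15.9 and 52.4 RPM in jam3b-sa37 embryos at 16 hpf and 0 and 0.057 RPM at 12 hpf, a difference of 4.87 with a standard error of 0.39 (adjusted p = 0.0015, limma). The WT libraries held 0.92 and 2.4 RPM at 16 hpf and 0 and 0 RPM at 12 hpf. Both WT libraries of the later stage were above both of the earlier one, by 1.35 on the log2 scale, without passing the test (adjusted p = 0.071, limma). The difference between the changes in the genotypes was 3.52 with a standard error of 0.56, which did not pass the test after adjustment (adjusted p = 0.651, limma).

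**Figure D2:**
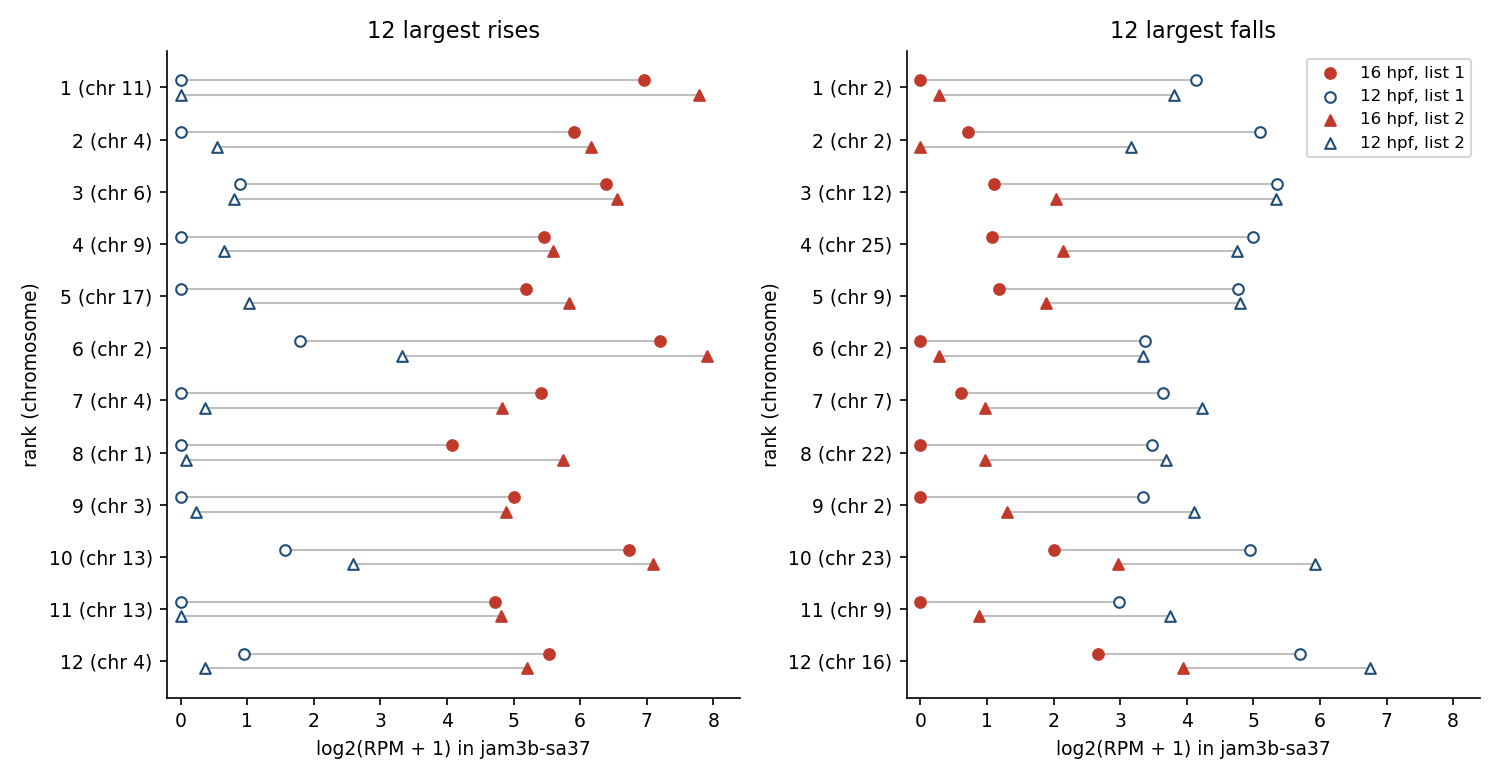
Level of the 12 largest called rises (left) and the 12 largest called falls (right) in each jam3b-sa37 library, as log2(RPM + 1), with 16 hpf as filled and 12 hpf as open symbols and a line joining the stages of a list. Most rises start near 0 at 12 hpf and most falls end near 0 at 16 hpf, while the rises span a wider range than the falls.

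On the log2(RPM + 1) scale the largest falls were smaller than the largest rises, between -3.84 and -2.92, as the plot of the 12 rises and 12 falls shows. With DESeq2, some of these falls were larger in size than some of the rises. At 16 hpf the 12 falling regions held 0 to 5.38 RPM in replicate 1 and 0 to 14.3 RPM in replicate 2. At 12 hpf they held 6.92 to 51.2 RPM and 7.96 to 106 RPM. All 12 were also called lower in WT embryos, with differences of -4.10 to -1.97 (adjusted p up to 0.022, limma). Without the replicate block none of the 12 falls was called, and 5 of the 12 rises were not.

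The fall at chr12:30645939-30646116 (-) came with close replicates at 12 hpf. It held 1.16 and 3.11 RPM in jam3b-sa37 embryos at 16 hpf and 39.9 and 39.3 RPM at 12 hpf, a difference of -3.77 with a standard error of 0.35 (adjusted p = 0.00198, limma). The stages were far apart in both lists. The WT libraries held 4.53 and 2.73 RPM at 16 hpf and 43.5 and 33.3 RPM at 12 hpf, a change of much the same size.

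The fall with the smallest adjusted p was that of chr7:7186869-7186973 (-), which held 0.52 and 0.955 RPM at 16 hpf and 11.5 and 17.8 RPM at 12 hpf. Its difference was -3.15 with a standard error of 0.18 (adjusted p = 0.000702, limma). The next kept region on its strand, chr7:7164945-7164991, at a gap of 21878 bases, changed the other way. That region held 16.1 and 32 RPM at 16 hpf and 1.54 and 4.07 RPM at 12 hpf, a difference of 2.73 (adjusted p = 0.000676, limma). The falling site was thus the stronger at 12 hpf in both lists and the rising site the stronger at 16 hpf. In WT embryos the falling site held 0.55 and 0.967 RPM at 16 hpf and 16.4 and 30.7 RPM at 12 hpf, and the rising site held 8.62 and 20.2 RPM at 16 hpf and 0 and 1.41 RPM at 12 hpf. Whether they belong to a single gene cannot be read from the files.

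A like arrangement was found on chromosome 25. The region chr25:352992-353002 (-) held 1.1 and 3.4 RPM at 16 hpf and 30.9 and 26 RPM at 12 hpf, a difference of -3.27 (adjusted p = 0.00507, limma, and 0.0527 without replicate 1 at 12 hpf). Its neighbour chr25:340656-340734 on the same strand, at a gap of 12258 bases, held 6.47 and 30 RPM at 16 hpf and 1.45 and 6.53 RPM at 12 hpf, a difference of 1.82 (adjusted p = 0.00413, limma). The falling site was above its neighbour in both lists at 12 hpf and below it in both at 16 hpf. In WT embryos the falling site held 2.2 and 1.39 RPM at 16 hpf and 54.4 and 31 RPM at 12 hpf.

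At higher levels, chr16:6880988-6881471 (-) held 5.38 and 14.3 RPM at 16 hpf and 51.2 and 106 RPM at 12 hpf, a difference of -2.92 with a standard error of 0.28 (adjusted p = 0.00217, limma). The site chr23:38239719-38239775 (+) held 3.01 and 6.81 RPM at 16 hpf and 30 and 59.7 RPM at 12 hpf, a difference of -2.95 with a standard error of 0.22 (adjusted p = 0.00125, limma). In both, replicate 2 was higher than replicate 1 at either stage, and the stages did not overlap.

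Of the 12 falls, 3 lie close together on the plus strand of chromosome 2. The kept regions of that strand between positions 15044801 and 15182245 numbered 7, a window chosen after the values were seen, and all 7 had negative differences, with a median of -1.94. Of these, 4 were called lower in jam3b-sa37 embryos and 4 in WT embryos, where 3.03% and 3.94% of all regions were. The region chr2:15046062-15046089 held 0.64 and 0 RPM at 16 hpf and 33.3 and 7.96 RPM at 12 hpf (difference -3.78, adjusted p = 0.0221, limma). The region chr2:15082747-15082755 held 0 and 0.208 RPM at 16 hpf and 16.7 and 13 RPM at 12 hpf (difference -3.84, adjusted p = 0.0117, limma). The region chr2:15155985-15156240 held 0 and 0.208 RPM at 16 hpf and 9.31 and 9.1 RPM at 12 hpf (difference -3.22, adjusted p = 0.014, limma).

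The levels of these neighbours varied between libraries of a stage, above all in WT embryos at 12 hpf, where chr2:15046062-15046089 held 90.9 RPM in replicate 1 and 4.54 RPM in replicate 2. With a jam3b-sa37 library left out, the calls of these 3 regions were lost, for each of them without replicate 1 at 12 hpf (adjusted p = 0.0727 to 0.125, limma), without replicate 2 at 12 hpf (0.0786 to 0.104) and without replicate 1 at 16 hpf (0.11 to 0.178). Without replicate 2 at 16 hpf only chr2:15046062-15046089 lost its call (0.0533). At the upstream end of the stretch, chr2:15044801-15044825 held 0.87 and 1.08 RPM at 16 hpf and 1.54 and 3.84 RPM at 12 hpf in jam3b-sa37 embryos, but 15.2 and 78.2 RPM at 16 hpf and 18.5 and 47.3 RPM at 12 hpf in WT embryos. That region did not pass the stage test in either genotype (adjusted p = 0.266 in jam3b-sa37 and 0.79 in WT, limma).

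The switch between near absence and clear use was counted with limits chosen after the values were seen. In jam3b-sa37 embryos, 32 regions held under 0.5 RPM in both libraries at 12 hpf and at least 5 RPM in both at 16 hpf. All 32 were called higher, which the limits favour, as they use the same values as the test. The reverse pattern was found in 2 regions. The 32 regions had medians of 8.85 and 9.36 RPM at 16 hpf, against 0 and 0.172 RPM at 12 hpf. In WT embryos 23 regions came on by these limits and 3 went off, of which 14 came on in both genotypes and 0 went off in both. Regions were kept by their jam3b-sa37 levels, so that sites used in WT embryos alone could be left out. The counts of the genotypes can therefore not be compared. Of the 32 regions, 28 were under 0.5 RPM in both WT libraries at 12 hpf and 16 were at 5 RPM or more in both at 16 hpf. The medians of the 32 in WT embryos were 5.36 and 8.6 RPM at 16 hpf and 0 and 0.086 RPM at 12 hpf.

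The strongest called rises had differences of 0.64 to 0.98. They were chr2:58654610-58654690 (+), chr15:33355-33847 (-) and chr6:39315070-39315543 (-). The chromosome 15 site spanned 492 bases in list 1 but 3 bases in list 2, so its replicates cover stretches of unlike width. It held 4197 and 3545 RPM at 16 hpf and 2053 and 1856 RPM at 12 hpf. Its difference was 0.98 with a standard error of 0.14 (adjusted p = 0.00834, limma). WT embryos had 3844 and 3848 RPM at 16 hpf and 2664 and 2521 RPM at 12 hpf, and that smaller difference of 0.57 was also called (adjusted p = 0.0478, limma). The chromosome 15 call was lost without replicate 1 at 16 hpf (adjusted p = 0.098, limma) and without replicate 1 at 12 hpf (0.0526).

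The site on chromosome 2 held 3646 and 5532 RPM at 16 hpf and 1942 and 3942 RPM at 12 hpf. Replicate 1 at 16 hpf lay below replicate 2 at 12 hpf, so that the stages overlapped across lists although each list gave a rise. Its difference was 0.70 (adjusted p = 0.033, limma), and 0.52 with TMM factors, where it was not called (adjusted p = 0.0904). The chromosome 6 site held 1211 and 4921 RPM at 16 hpf and 719 and 3389 RPM at 12 hpf, a difference of 0.64 (adjusted p = 0.0361, limma). With TMM factors it was not called (adjusted p = 0.116). The chromosome 2 and chromosome 6 calls were both lost without any of the 4 jam3b-sa37 libraries in turn (adjusted p = 0.0613 to 0.263, limma).

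The strongest falls included chr5:3244048-3244537 (-), a site that lost most of its tags. It held 484 and 664 RPM at 16 hpf and 2272 and 3558 RPM at 12 hpf, a difference of -2.32 with a standard error of 0.31 (adjusted p = 0.00601, limma). The WT libraries held 628 and 440 RPM at 16 hpf and 2822 and 2177 RPM at 12 hpf, a difference of -2.24. In both genotypes the stages lay apart without overlap. The jam3b-sa37 call was lost without replicate 1 at 16 hpf (adjusted p = 0.0679, limma).

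The other strong falls, chr4:76321207-76321458 and chr4:76325023-76325164, belong to a group of 18 kept regions on the plus strand at chr4:76319684-76325274. The group held 5.59% and 4.02% of the listed RPM at 16 hpf and 8.93% and 6.23% at 12 hpf in jam3b-sa37 embryos. In WT embryos it held 5.35% and 5.16% at 16 hpf and 10.2% and 7.4% at 12 hpf. The share was lower at 16 hpf in both genotypes, without overlap of the stages. All 18 regions had negative differences with a median of -0.62, and -0.57 with quantile normalization and -0.79 with TMM factors.

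Of these 18 regions, 2 were called lower in jam3b-sa37 embryos and 9 in WT embryos, where 3.03% and 3.94% of all regions were. The median differences were -0.62 and -0.81. None of the 18 passed the test of a difference between the genotypes, but neither did any other of the 19003 regions. That outcome therefore says nothing particular about this group. The strongest called fall, chr4:76321207-76321458, held 9863 and 7961 RPM at 16 hpf and 16919 and 14266 RPM at 12 hpf, a difference of -0.81 (adjusted p = 0.043, limma). With quantile normalization its difference was -0.29 and it was not called (adjusted p = 0.228). The region chr4:76325023-76325164 held 2902 and 1910 RPM at 16 hpf and 4748 and 3288 RPM at 12 hpf, a difference of -0.75 (adjusted p = 0.0391, limma; 0.149 with quantile normalization). Both calls were lost without any of the 4 jam3b-sa37 libraries in turn (adjusted p = 0.135 to 0.208, limma). As a group this large alters the RPM of every other site, RPM was recomputed without its 18 regions. The calls were then 1918 higher and 599 lower, or 76.2% higher, and the median of all regions was 0.09.

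Neighbouring start sites changed alike when they lay close together. Next regions on a strand at gaps of 300 to 1000 bases had stage differences with r = 0.63 (n = 872 pairs), and those at gaps of 1 to 3 kb had r = 0.57 (n = 1403). At gaps of 3 to 10 kb r was 0.31 (n = 1928), at 10 to 30 kb 0.09 (n = 2903) and at 100 kb or more 0.02 (n = 6587). Pairs at gaps under 300 bases had r = 0.52 (n = 539). These correlations are across pairs of regions that share libraries and depth, and are a description only. The first region was also read in list 1 and the second in list 2. Across lists, r was 0.50 at 300 to 1000 bases and 0.43 at 1 to 3 kb. It was only 0.27 for the closest pairs, under 300 bases, and 0.25 at 3 to 10 kb. Close neighbours may be starts of a single gene, which these files do not show.

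**Figure D3:**
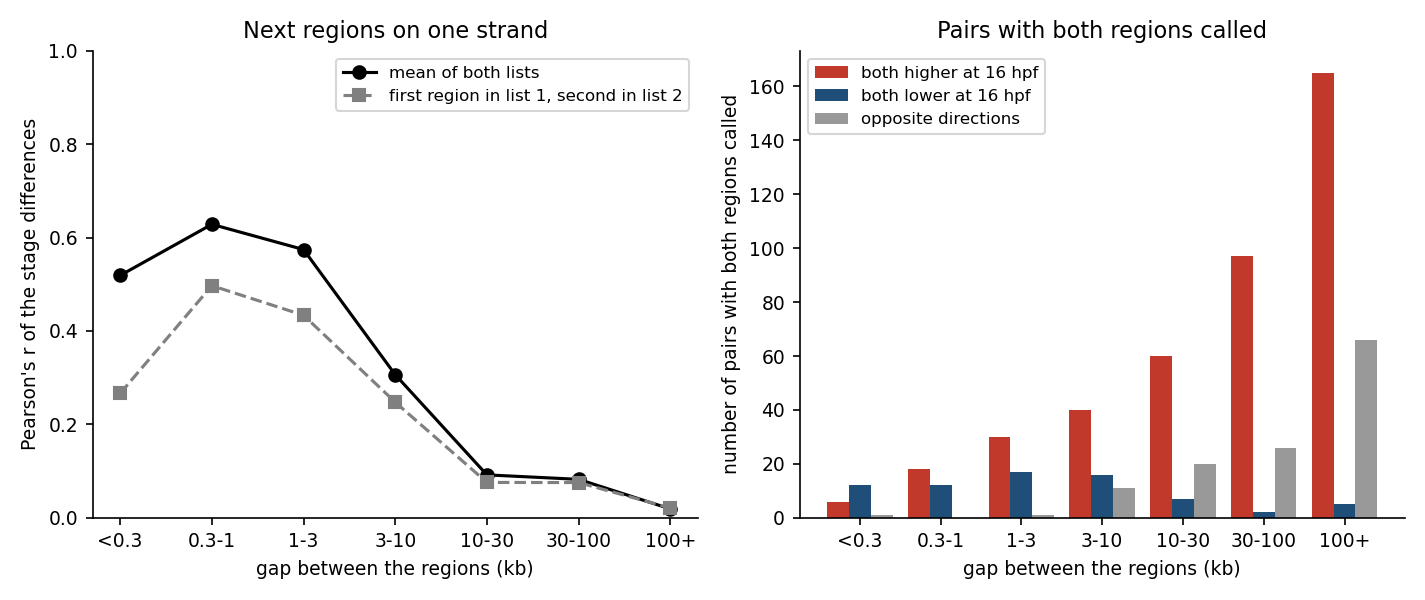
Left, Pearson's r between the jam3b-sa37 stage differences of next regions on a strand by the gap between them in kb, for the mean of both lists and for the first region in list 1 against the second in list 2. Right, the number of pairs with both regions called, by gap and direction, where 30 pairs at 0.3 to 1 kb were alike and 0 opposite.

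Where both regions of a pair were called, the directions were the same in 18 of 19 pairs under 300 bases, 30 of 30 at 300 to 1000 bases and 47 of 48 at 1 to 3 kb. At 3 to 10 kb they were the same in 56 of 67 pairs, with 40 pairs both higher and 16 both lower. At 10 to 30 kb they were the same in 67 of 87 pairs and opposite in 20. At 100 kb or more they were the same in 170 of 236 pairs, of which 165 were both higher. Of all calls 79.6% were rises, so called regions often share a direction whatever their distance. Pairs that fell together made up 12 of the 19 closest and 5 of the 236 farthest.

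The closest pair with opposite calls lies on chromosome 11. The region chr11:19894388-19894507 (+) held 1.5 and 3.9 RPM at 16 hpf and 0.51 and 1.09 RPM at 12 hpf, a difference of 0.98 (adjusted p = 0.0139, limma). The region chr11:19894791-19894898 (+), 284 bases farther along, held 6.24 and 13.6 RPM at 16 hpf and 13.9 and 24.8 RPM at 12 hpf, a difference of -0.93 (adjusted p = 0.0328, limma). The second site stayed the stronger at both stages. In WT embryos the differences were 0.70 and -1.18, both called (adjusted p = 0.0421 and 0.0165, limma).

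Regions on opposite strands that pointed away from each other within 1000 bases formed 618 pairs. Their differences had r = 0.19. At least 1 side was called in 81 of these pairs, and both sides in 5, of which 4 rose together and 1 went in opposite directions. Either side of a pair can be called, so at the 14.8% of all regions at least that share of pairs would hold a call. The 81 of 618 pairs are a smaller share, so these sides were called less often than regions as a whole. This r lay below the 0.52 and 0.63 of next starts on a strand at gaps under 1000 bases, a description with no test.

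Start sites in dense runs were called lower more often than higher. There were 288 runs of at least 5 kept regions on a strand with gaps of at most 10 kb, and they held 2053 regions. Of these regions 3.99% were called higher and 5.55% lower, beside 11.8% and 3.03% of all regions. In 23 runs at least 2 regions were called lower, in 20 at least 2 were called higher, and in 9 there were calls in both directions. All differences were negative in 43 runs and positive in 16. In 183 runs no region was called.

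The runs with the most calls, chosen by that count, were compared member by member. At chr8:52894258-52913310 (-), 6 of 8 regions were called lower, with a median difference of -1.24. Their summed level was 8.5 and 11 RPM in jam3b-sa37 embryos at 16 hpf and 41.1 and 35 RPM at 12 hpf, and the stages did not overlap. The WT sums were 5.94 and 8.79 RPM at 16 hpf and 44.5 and 37.3 RPM at 12 hpf.

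At chr5:44204669-44210535 (+), all 5 regions were called lower, with a median of -1.09 and sums of 164 and 50.7 RPM at 16 hpf and 350.4 and 109 RPM at 12 hpf. The lists differed in level at this run, so that replicate 1 at 16 hpf lay above replicate 2 at 12 hpf. At chr9:46605361-46615391 (-), 4 of 5 were called lower, and the sums were 413 and 407 RPM at 16 hpf and 886 and 765 RPM at 12 hpf. At chr15:43682864-43705299 (+) and chr23:3808824-3816612 (-), 5 of 8 and 6 of 15 regions were called lower, with medians of -0.83 and -0.52. At chr10:45138197-45148152 (+), 4 of 6 were called lower, with a median of -0.79. The medians of these 6 falling runs were also negative with TMM factors and with quantile normalization. That outcome was favoured, as the runs were chosen by their falls. Both settings also lowered the median of all regions, to -0.02 and -0.05.

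Rising runs were led by chr22:14068527-14074101 (+) in size. There 3 of 5 regions were called higher, and the sums were 745 and 1328 RPM at 16 hpf and 134 and 382 RPM at 12 hpf. The stages did not overlap, and the median difference was 1.099. At chr13:33497119-33499625 (+), 3 of 5 regions were called higher, with a median of 0.77 and sums of 364 and 472 RPM at 16 hpf and 174 and 293 RPM at 12 hpf. At chr22:62646-75228 (+), 3 of 5 were called higher, with a median of 0.90 and sums of 118 and 191 RPM at 16 hpf and 77.9 and 113 RPM at 12 hpf.

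Other runs were mixed. At chr19:20164274-20209727 (+), 5 of 10 regions were called higher and 1 lower, with differences from -0.68 to 2.82. At chr3:23535957-23591350 (+), 4 of 15 were called higher and 1 lower, and the median was -0.03. There the summed level was 174 and 213 RPM at 16 hpf and 178 and 249 RPM at 12 hpf, so the run as a whole did not gain tags while single starts in it did. The run at chr2:58654610-58661993 (+), which holds the strong chromosome 2 site described above, had 4 of 7 regions called higher.

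**Figure D4:**
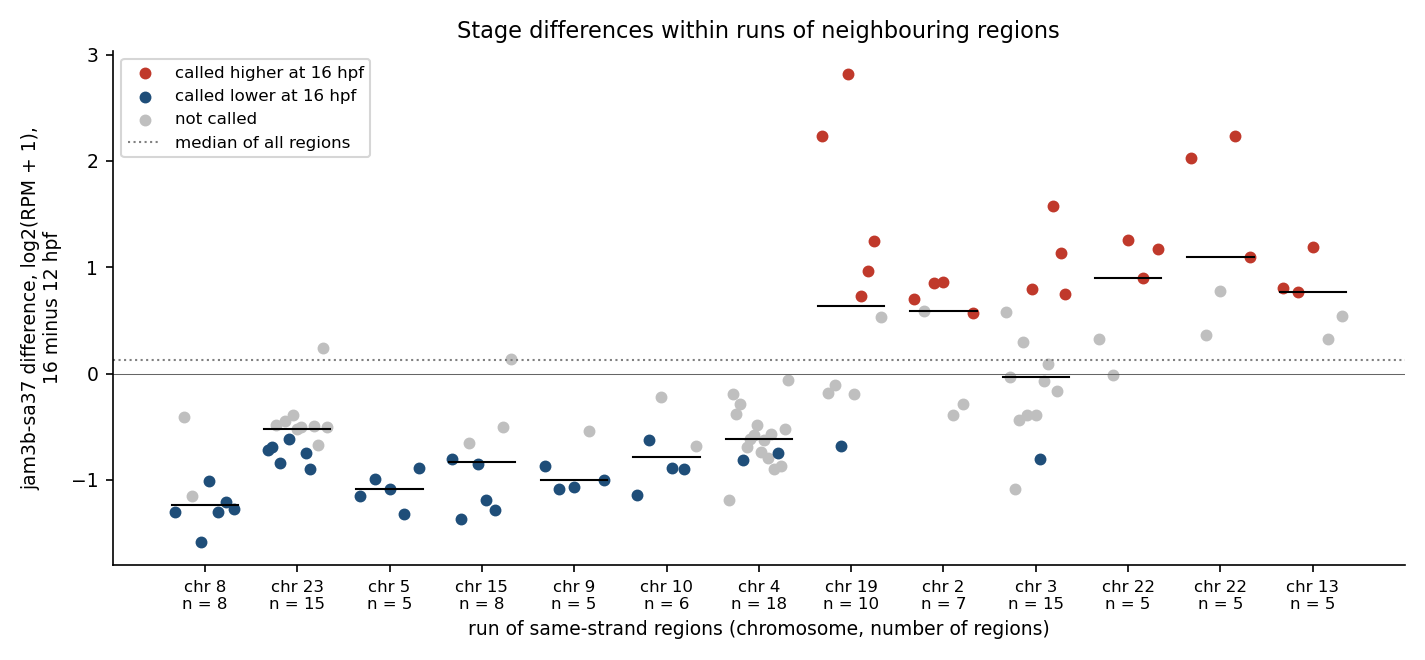
Stage difference, 16 minus 12 hpf on the log2(RPM + 1) scale in jam3b-sa37 embryos, of each region in the 6 runs with the most falls, the group at the end of chromosome 4 and the 6 runs with the most rises, with calls coloured and the median of each run as a bar. The falling runs hold no called rise, while the runs on chromosomes 19 and 3 hold calls in both directions.

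Calls were spread over all chromosomes. The share of regions called higher was greatest on chromosome 9 (15.8% of 626) and chromosome 13 (15.5% of 703) and smallest on chromosome 22 (8.35% of 659) and chromosome 4 (8.86% of 858). Chromosome 4 was uneven along its length. From 30 to 70 Mb, limits chosen after the values were seen, 4 of 244 regions were called higher (1.64%) and 16 lower (6.56%), and the median difference was -0.37. Below 30 Mb, 69 of 484 regions were called higher (14.3%), and the median was 0.17. The median from 30 to 70 Mb lay 0.49 below that of all regions in jam3b-sa37 embryos and 0.37 below in WT embryos.

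Weak and strong sites differed in how often they were called. The share called higher was 12.3% at means of 1 to 2 RPM (n = 2970), 14.7% at 2 to 5 RPM (n = 4045) and 14.3% at 5 to 10 RPM (n = 3365). It was 11.6% at 10 to 20 RPM (n = 3186), 9.04% at 20 to 50 RPM (n = 3032), 6.25% at 50 to 100 RPM (n = 1216) and 6.98% at 100 RPM or more (n = 1189). The share called lower was between 2.14% and 3.81% in these classes. The spread of the differences was also smaller at high levels, with an SD of 0.68 at 2 to 5 RPM and 0.47 at 100 RPM or more. By width in list 2, calls did not follow a single order. The 1117 narrowest regions were called higher in 6.8% of cases and lower in 3.76%, and the next class of 730 in 16.4% and 5.21%. The 2422 widest were called higher in 8.46% and lower in 4.34%. By width in list 1, the 936 narrowest regions were called higher in 13.6% of cases and lower in 4.49%. The low share of rises in the narrowest class was thus seen by width in list 2 alone. Called falls had median widths of 90 bases in list 1 and 92 in list 2, called rises 59 and 78, and all regions 68 and 77.

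In WT embryos, 2611 of the same 19003 regions (13.7%) were called between the stages, with 1862 (9.8%) higher at 16 hpf and 749 (3.94%) lower. The jam3b-sa37 rises included 1441 that were called higher in WT embryos too, which is 64.2% of the jam3b-sa37 rises and 77.4% of those in WT. The falls shared 372 regions, 64.7% of those in jam3b-sa37 and 49.7% of those in WT. Both tests came from the same fit and shared the spread of each region, which favours calls in both genotypes. No region was called in opposite directions in the 2 genotypes. Of the 2245 jam3b-sa37 rises, 2203 had a positive difference in WT embryos, and of the 575 falls 560 had a negative one. A call in a single genotype does not show that the genotypes differ. Across regions the differences in jam3b-sa37 and WT had r = 0.80 (n = 19003). Without the replicate block, 7 regions were called in WT embryos. The WT count was 850 without replicate 1 and 985 without replicate 2 at 16 hpf, and 736 without replicate 1 and 1647 without replicate 2 at 12 hpf.

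For every region kept by its jam3b-sa37 level, the difference between the stage changes of the genotypes was tested. It passed in 0 of 19003 regions (0%, limma with the replicate block), and 887 regions (4.67%) had an unadjusted p under 0.05. edgeR called 0 regions and DESeq2 called 27. Of the 5 regions with the smallest p, chr2:31731273-31731283 (-) came nearest to the threshold, with a difference between the changes of 4.57 (adjusted p = 0.0733, limma). It was called with TMM factors (adjusted p = 0.00864, limma), with an intensity trend (0.0454) and with a filter at 5 RPM (0.0197). Without replicate 1 of jam3b-sa37 at 16 hpf its difference was 4.96. It was not called in edgeR or DESeq2, with quantile normalization, with a pseudocount of 0.1 or without the replicate block. At the chromosome 11 site of the largest rise the changes differed by 11.12 with all libraries (adjusted p = 0.972, limma). Without replicate 1 of WT at 12 hpf, which held 0 RPM, this difference was 14.73. That setting leaves the 180 RPM of replicate 2 as the only WT value at 12 hpf, so it cannot show that the genotypes differ. Without replicate 2 of WT at 16 hpf, the changes differed by 8.73 at chr25:34551618-34551631 (+) and by -7.47 at chr7:5842644-5842657 (+). There too a single WT library was left at the stage concerned. In WT libraries the chromosome 2 region was listed at 0 throughout, and in jam3b-sa37 it held 17.6 and 31.2 RPM at 16 hpf and 0 and 0.057 RPM at 12 hpf. A site with tags in WT libraries alone would have been left out by the filter.

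The region chr14:16815966-16816140 (-) rose in both genotypes. It held 19.9 and 27.9 RPM in jam3b-sa37 embryos at 16 hpf and 0 and 0.802 RPM at 12 hpf, a difference of 4.20. The WT libraries held 9.91 and 22.5 RPM at 16 hpf and 1.65 and 2.91 RPM at 12 hpf, a difference of 2.31, so that both genotypes were called (adjusted p = 0.0005 in jam3b-sa37 and 0.00177 in WT, limma). The changes differed by 1.88 (adjusted p = 0.651, limma, and 0.015 in DESeq2).

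The region chr4:56092417-56092433 (-) held 4.51 and 7.27 RPM in jam3b-sa37 embryos at 16 hpf and 0 and 0.115 RPM at 12 hpf. In WT embryos it held 0 and 0.126 RPM at 16 hpf and 0 and 0 RPM at 12 hpf, and the changes differed by 2.59 (adjusted p = 0.197, limma). The region chr12:20218649-20218672 (-) differed the other way, by -2.14 (adjusted p = 0.191, limma), since its rise was smaller in jam3b-sa37 embryos. The region chr23:39665531-39665606 (+) held 4.05 and 13.9 RPM in jam3b-sa37 embryos at 16 hpf and 1.62 and 5.9 RPM at 12 hpf. In WT embryos it held 0.61 and 2.23 RPM at 16 hpf and 1.33 and 4.67 RPM at 12 hpf. Its changes of 1.03 in jam3b-sa37 and -0.67 in WT differed by 1.70 with a standard error of 0.25 (adjusted p = 0.651, limma, and 0.027 in DESeq2).

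**Figure D5:**
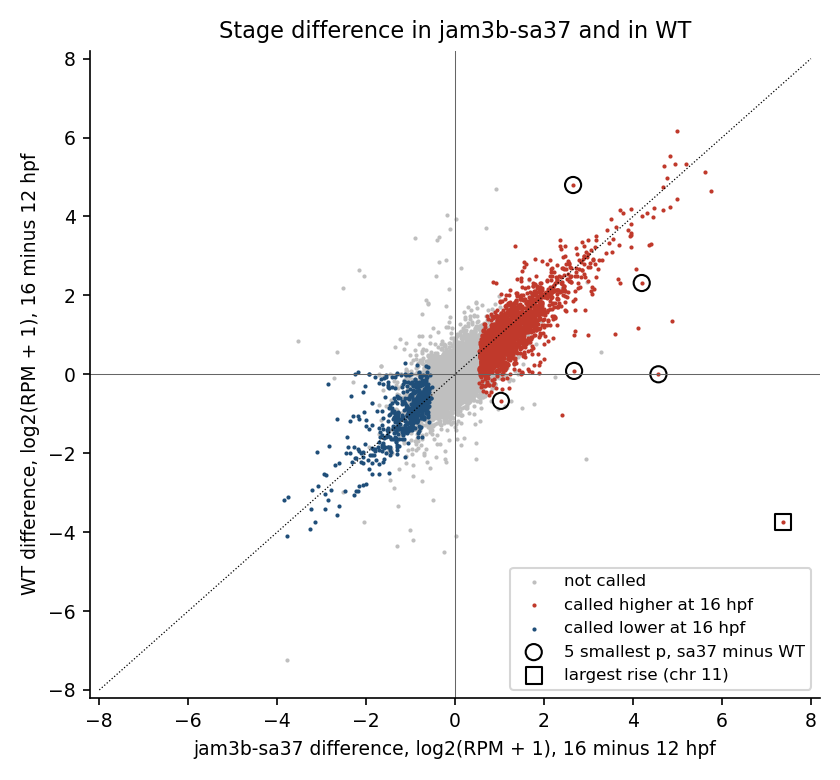
Stage difference of each region, 16 minus 12 hpf on the log2(RPM + 1) scale, in jam3b-sa37 embryos (x axis) and in WT embryos (y axis), coloured by the jam3b-sa37 call. Most called regions follow the diagonal, and the largest rise, at 7.37 in jam3b-sa37 and -3.75 in WT, stands off it.

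In the plot of jam3b-sa37 against WT changes, the 2245 rises had a median of 1.08 in jam3b-sa37 embryos and 0.92 in WT embryos, and the 575 falls had medians of -0.996 and -0.91. The regions were picked by their jam3b-sa37 values, so these medians are no test of a difference between the genotypes. The embryos were measured whole, so that a change in the number of cells of a type and a change in RNA per cell cannot be told apart.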

How the data were processed

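The deposited values are RPM, inferred from the column sums and value steps. Per the submitters' processing notes, BWA, HISAT2 and danRer10 were used; the authors' clustering method and tag totals are not given in the sources used here. Repeated rows (412 in list 1, 796 in list 2) were dropped. Values up to 20 RPM were whole multiples of 1 tag in 100% of cases, within the rounding of the files, whereas 12.3 to 18.2% of list 1 values and 1.83 to 2.53% of list 2 values would be so by chance, and tags were recovered from this step. Same-strand clusters overlapping by at least 1 base were merged, and coordinates are printed as the files give them.

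The main test was limma 3.58.1 (R 4.3.3; lmFit and eBayes) on log2(RPM + 1), with means for the 4 groups, all 8 libraries and the replicate number as a block. On this scale, changes of weak sites come out too small. Two-sided p-values were Benjamini-Hochberg adjusted over 19003 regions. The numbers come from the titles, and same-numbered libraries deviated together from their group means, with correlations of 0.68 to 0.83 across regions. edgeR 4.0.16 and DESeq2 1.42.0 were run on recovered tags. Tags carry no molecular identifiers, so depth speaks for counting error only. Named regions were the 12 largest called rises and falls with 1 sign in both lists, the 3 strongest calls per direction and the 5 smallest p of the genotype difference; others were chosen after their values were seen. The regions, rules and lists were chosen with earlier results of these data known.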

Additional observations from a re-analysis of the deposited data

Results flagged for a closer look

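The region chr23:39665531-39665606 (+) was higher at 16 than at 12 hpf in both lists in jam3b-sa37 embryos and lower in both lists in WT embryos. The difference between the changes was 1.70 on the log2(RPM + 1) scale (adjusted p = 0.651, limma). Its p before adjustment over 19003 regions was among the 5 smallest, which is how the region was picked.

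Regions covered by a single cluster list entered no test. Of the 6397 regions of list 1 alone, 14 held at least 5 RPM in jam3b-sa37 embryos at 16 hpf and under 0.5 RPM at 12 hpf, and 13 showed the reverse. The same counts in WT embryos were 20 and 21. The strongest of the 14, chr11:11373522-11373574 (-), held 56.7 RPM in replicate 1 of jam3b-sa37 at 16 hpf and 0 RPM in the other libraries of that list. Of the 12131 regions of list 2 alone, 2 held at least 5 RPM at 16 hpf and under 0.5 RPM at 12 hpf in jam3b-sa37, and 1 showed the reverse, with 0 and 0 in WT. The stronger of the 2, on the unplaced sequence KN149696 at 169296 to 169298 (+), held 160 RPM in jam3b-sa37 at 16 hpf and 0.172 RPM at 12 hpf, and 152 RPM in WT at 16 hpf and 190 RPM at 12 hpf. Each count rests on 1 library per group.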

How the results depend on the processing

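The jam3b-sa37 count of 2820 calls was 1552 in edgeR, 1669 in edgeR with DESeq2 size factors, 1012 with a pseudocount of 0.1 and 19 without the replicate block, and 472 to 2550 with a library left out. The WT count of 2611 was 1714 in edgeR, 958 with a pseudocount of 0.1 and 7 without the block, and 736 to 2297 with a library left out. The genotype difference, with 0 calls, had 27 in DESeq2 and 1 each with TMM factors, an intensity trend or a filter at 5 RPM, and 0 to 2 with a library left out. The other settings tried kept these counts within 1.5 times. A library left alone in its group is assumed to vary like the others. Among the named regions under all settings, 772 outcomes kept their direction and side of the threshold, 89 kept the direction but lost the call, 6 gained a call and 0 turned round. The causes were not tested. The lists' different lower ends limit what can be said of sites under 0.5 RPM.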
